A study of Danio rerio with 18 samples.

Results

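Fatty acid binding proteins are small cytosolic proteins that carry long-chain fatty acids, and in some members bile acids, between membranes, enzymes and lipid droplets. In enterocytes they take up fatty acids that arrive from the gut lumen, and hepatocytes hold their own abundant member. Slc27a4 is a membrane-bound fatty acid transport protein with acyl-CoA synthetase activity, which traps the fatty acid inside the cell as an acyl-CoA.

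The 7 genes described here are fabp1a, fabp1b.1, fabp2, fabp3, fabp10a, fabp11a and slc27a4. They were chosen by name, with earlier results of these data known, so a share of members called is a description and no test of enrichment. All 7 had a row in the authors' deposited table, out of 21227 gene symbols. Where a symbol had several transcripts, the one with the highest average expression stood for the gene. A position given below is the interval of that row. Rows of other genes can share it, so it need not be the extent of the gene. Of the 7 genes, 6 had an average log2 CPM (read counts scaled to the total of a library, averaged over samples) no lower than 0, as did 12828 symbols in all, which are called measured genes here. The exception was fabp1a, with an average of 0.369 CPM.

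All samples were digestive organs (intestine, liver and pancreas) of AB strain zebrafish larvae at 6.5 days post fertilization, dissected from 10 larvae and pooled. The 6 groups, each of 3 samples, were larvae fed a high-fat egg yolk emulsion (5%) and taken 1 h or 4 h later, unfed larvae of that cohort, larvae fed low-fat egg white (10%) and taken 1 h or 4 h later, and unfed larvae of this other cohort. The triplicates came from separate pairwise crosses, per the series' design text. Each fed group was compared with the unfed larvae of its own cohort, to ask which genes a meal of either kind moves and when. The meals differed in food, strength and cohort as well as in fat. A difference between meals cannot be told apart from these. The same unfed larvae of a cohort served both times, and the labels give them no sampling time. A difference between 4 h and 1 h therefore cannot be told apart from a change with time alone.

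The authors' deposited table gives a log2 fold change (fed over unfed), a p-value and an adjusted p for each comparison, and a gene is called here when the authors' adjusted p was under 0.05. After high-fat feeding 1.77% (1 h) and 0.616% (4 h) of measured genes were called lower. The share called lower after low-fat feeding was not computed. No per-sample values were used here, and the depth of each library is unknown. Dividing a fold change by the normal score that its p-value corresponds to gives a standard error for that row. The implied standard error of a gene was the median of such values over the rows nearest in expression, not its own ratio. It was 0.358 to 0.374 on the log2 scale for the 6 measured genes (0.478 to 0.513 for fabp1a). A 95% interval therefore reached 0.702 to 0.733 to either side of a measured gene's log2 fold change. Taken from neighbours in expression, such an interval does not measure how a gene itself varied between the pools of a group. The authors' p-values likewise hardly followed each transcript's own spread between samples, as far as checked, at a log2 CPM of at least 5. The calls and the tests of differences share this limit. Among genes averaging a log2 CPM of 1 or more, the smallest change called was between 1.16 and 1.42 in size, depending on the comparison.

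The labelled organs were all represented. Average levels over all samples lay between 19.6 and 2067 CPM for 8 enterocyte markers, between 57.3 and 943 CPM for 12 hepatocyte markers and between 852 and 1.10e+04 CPM for 7 markers of the exocrine pancreas. Skeletal muscle markers, which the labels do not name as a dissected tissue, were also present, with 13 of 13 between 50.9 and 487 CPM. Of 9 markers of lens, eye and nervous tissue, 7 had an average log2 CPM under 0. In such bulk samples, fewer cells of a type and less RNA per cell cannot be told apart.

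The calls were split between the members. At 1 h, slc27a4 was the only one of the 7 genes called, with either feed. At 4 h after high-fat feeding fabp1b.1 was the only one called, and at 4 h after low-fat feeding none was. The gut and liver marker genes fabp2 and fabp10a were not called in any of the 4 comparisons, nor were fabp3, fabp11a and fabp1a.

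**Figure D1:**
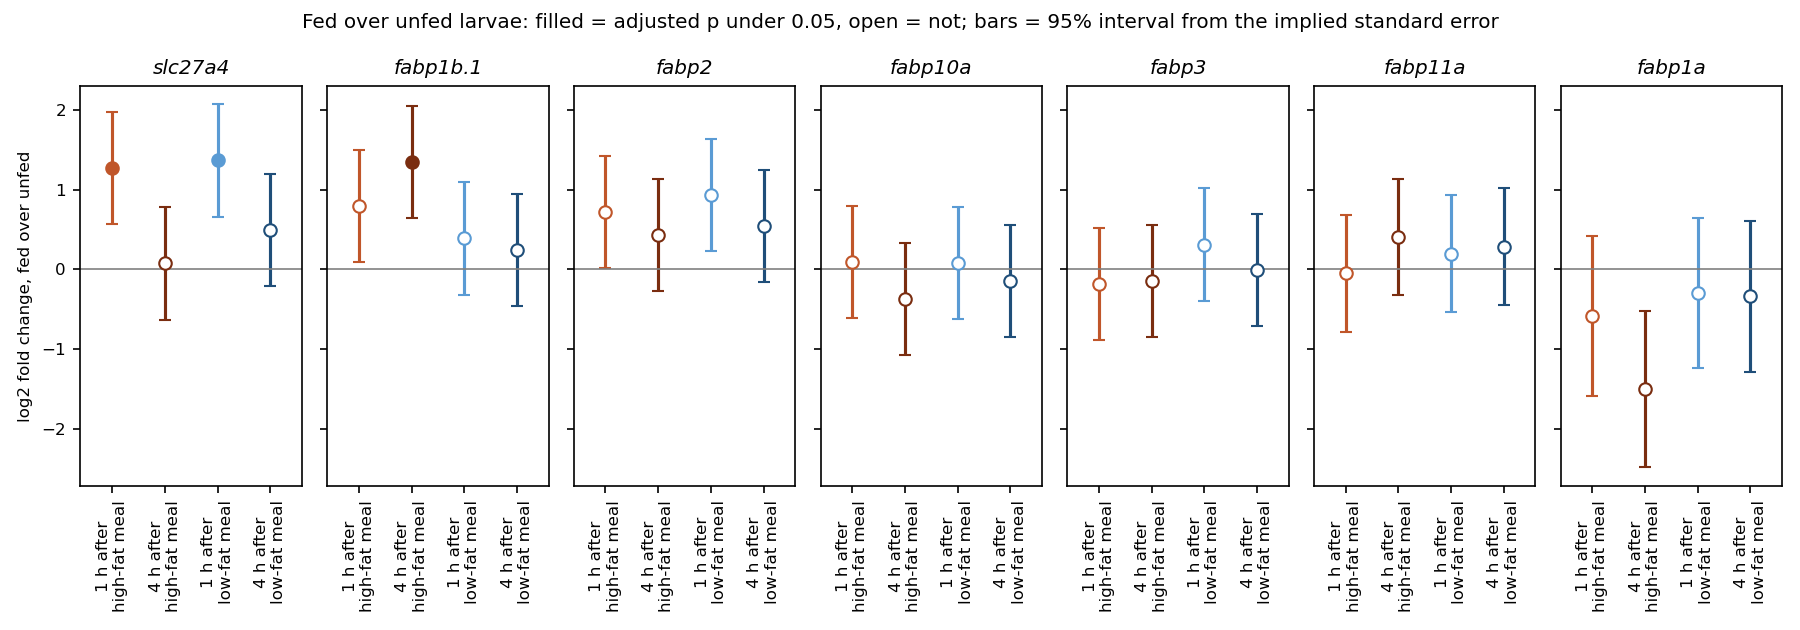
The vertical axis is the log2 fold change of fed over unfed larvae for each of the 7 genes, and the horizontal axis gives the 4 comparisons (3 pools of 10 larvae per group). Filled points passed the authors' adjusted p of 0.05, open points did not, and bars are 95% intervals from the implied standard error. Filled points are seen for slc27a4 at 1 h after both meals (1.27 and 1.36) and for fabp1b.1 at 4 h after high-fat feeding (1.34).

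The uptake step was represented by slc27a4, which in mammals is the main fatty acid transport protein of the small intestine. Which cells of these pooled organs express slc27a4 was not tested. Its row, ENSDART00000004181, lies on chromosome 10 from 10704776 to 10748706 of build Zv9 and averaged 27.2 CPM over all samples. At 1 h after high-fat feeding the authors' deposited table has it higher by 1.27 on the log2 scale (2.41-fold, 95% interval 0.57 to 1.98, edgeR adjusted p = 0.0245). It was 1 of 6 measured members called higher, against 1.96% of the 12828 measured genes, a description given how the members were chosen. At 1 h after low-fat feeding it rose by 1.36 (2.57-fold, interval 0.66 to 2.07, adjusted p = 0.0104) in the authors' deposited table, again 1 of 6 against 2.72% of measured genes. The other cohort, with unfed larvae of its own, thus gave a value of much the same size. The difference between the meals at 1 h was -0.09 (high-fat minus low-fat, interval -1.09 to 0.90). This interval leaves room for a meal difference of up to about 1 log2 unit in either direction. A larger difference still would be needed to pass after adjustment over the measured genes.

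After high-fat feeding slc27a4 was lower at 4 h than at 1 h. At 4 h the authors' deposited table gave 0.08 after high-fat feeding (interval -0.63 to 0.78, adjusted p = 1) and 0.49 after low-fat feeding (interval -0.21 to 1.2, adjusted p = 1). For high-fat feeding, 4 h minus 1 h was -1.2 (interval -1.90 to -0.49, adjusted p = 0.0183 by a normal test on the implied standard errors, adjusted over the measured genes), where 3.25% of measured genes were called lower at 4 h than at 1 h. After low-fat feeding, 4 h minus 1 h was -0.87 (interval -1.58 to -0.17), with an unadjusted p of 0.0153 and an adjusted p of 0.287 by the same test, so it did not pass (1.4% of measured genes were called lower). Whether this decline differed between the meals was not tested.

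Of the liver-type binding proteins, fabp1b.1 was called at 4 h after high-fat feeding. This gene is known in zebrafish for expression in the intestine. Its row (ENSDART00000149528) has an interval on chromosome 8 from 910208 to 920867 of Zv9 and an average of 179 CPM. The authors' deposited table gave 0.79 at 1 h after high-fat feeding (interval 0.09 to 1.49), which had an unadjusted p of 0.0273 but an adjusted p of 0.324 and was not called. At 4 h after high-fat feeding fabp1b.1 rose by 1.34 (2.54-fold, interval 0.64 to 2.04, adjusted p = 0.0278) in the authors' deposited table, 1 of 6 measured members against 0.741% of measured genes. After low-fat feeding the authors' deposited table gave 0.39 at 1 h (interval -0.31 to 1.09) and 0.24 at 4 h (interval -0.46 to 0.94).

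The call of fabp1b.1 at 4 h after high-fat feeding does not by itself show a dependence on fat. High-fat minus low-fat at 4 h was 1.1 (interval 0.11 to 2.09), with an unadjusted p of 0.0299 and an adjusted p of 1 by the normal test over the measured genes. For 4 h minus 1 h after high-fat feeding, the difference was 0.55 (interval -0.15 to 1.25, adjusted p = 0.492). Enterocyte markers had a median log2 fold change of 0.37 at 4 h after high-fat feeding, against a median of 0.01 over all measured genes. These markers ranged from -1.18 to 1.02 with 5 of 8 above 0, and their part in the value of fabp1b.1 was not tested.

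The reads of fabp1b.1 may include those of its tandem copy. In the RefSeq gene table of assembly GRCz12tu the next coding gene on chromosome 8 is fabp1b.2, and a row of the authors' deposited table that joins both symbols has the same interval, an average log2 CPM of 7.48 (also 7.48 for fabp1b.1) and a log2 fold change of 1.34 at 4 h after high-fat feeding. Whether the value stands for fabp1b.1 alone or for the pair of copies is not resolved by these rows. No row carries fabp1b.2 alone.

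**Figure D2:**
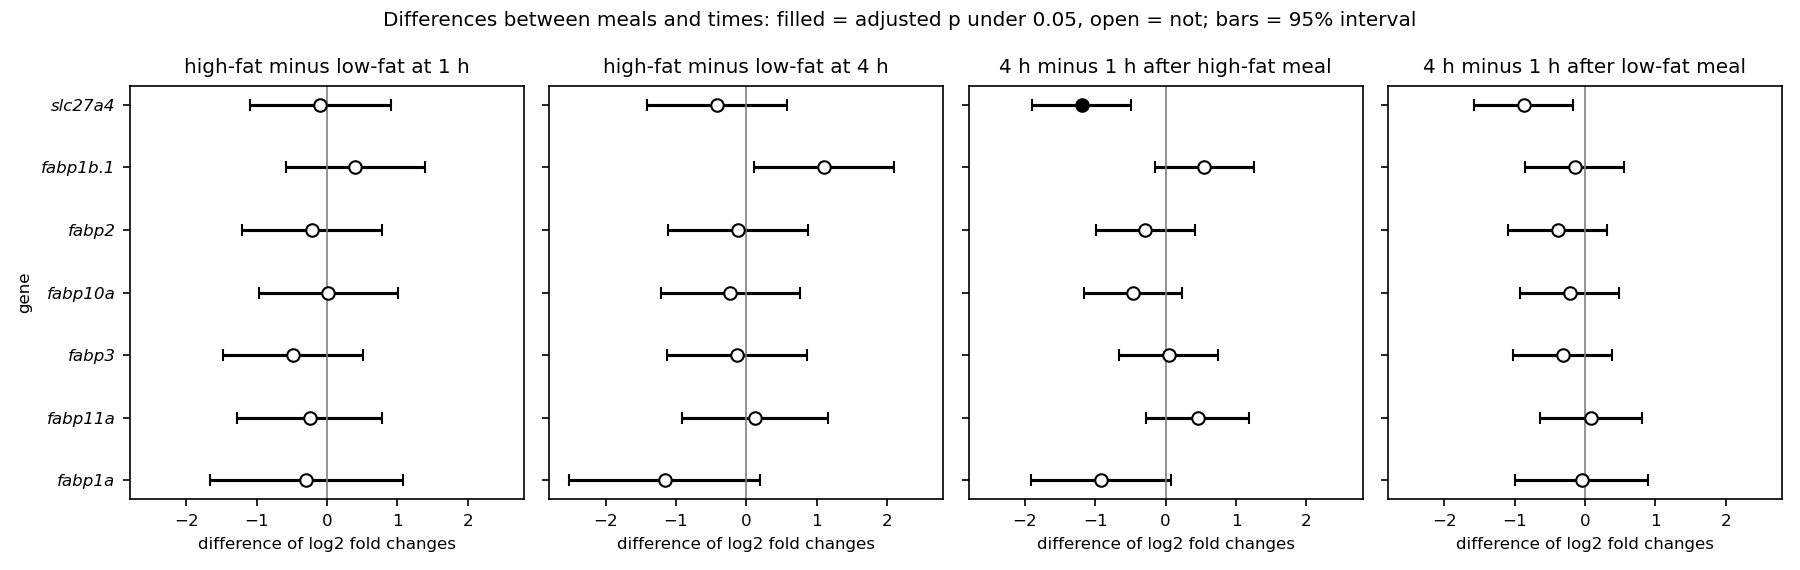
Each panel shows, for the 7 genes, a difference of log2 fold changes on the horizontal axis, between the meals (high-fat minus low-fat) at 1 h and 4 h and between 4 h and 1 h after each meal. Bars are 95% intervals; the filled point, slc27a4 at 4 h minus 1 h after high-fat feeding (-1.2), had an adjusted p under 0.05, and fabp1a was below the expression limit for an adjusted p.

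The intestinal-type gene fabp2, a marker of mature enterocytes, had values above 0 in all 4 comparisons but was not called in any of them. Its row (ENSDART00000027973) has an interval on chromosome 1 from 24705631 to 24708975 of Zv9 and averaged 1043 CPM. The authors' deposited table gave 0.72 at 1 h after high-fat feeding (interval 0.02 to 1.42, adjusted p = 0.415) and 0.94 at 1 h after low-fat feeding (1.91-fold, interval 0.23 to 1.64, adjusted p = 0.170). At 4 h it gave 0.43 after high-fat feeding (interval -0.27 to 1.13) and 0.55 after low-fat feeding (interval -0.15 to 1.25), and the authors' deposited table has an adjusted p of 1 for both. Both unadjusted p-values at 1 h were under 0.05, at 0.0437 (high-fat) and 0.00911 (low-fat), so the lack of a call does not show that fabp2 was unaffected. Its meal differences were -0.21 at 1 h (interval -1.21 to 0.78) and -0.12 at 4 h (interval -1.11 to 0.87).

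Enterocyte markers, a list without fabp2, had medians above 0 as well. Their median log2 fold change was 0.38 at 1 h after high-fat feeding, with 1 of 8 called higher (1.96% of all measured genes), and 0.53 at 1 h after low-fat feeding, with 2 of 8 called higher (2.72%). At 4 h the median was 0.37 after high-fat feeding and 0.19 after low-fat feeding. With either feed 0 of 8 were called higher at 4 h, where 0.741% (high-fat) and 0.437% (low-fat) of measured genes were. Also 0 were called lower at 4 h, against 0.616% of measured genes after high-fat feeding and a share not computed after low-fat feeding. The part of enterocyte content in the values of fabp2 and slc27a4 was not tested. The list was not uniform: at 1 h after low-fat feeding its members ranged from -0.93 to 1.56.

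No call was made for fabp10a, the liver basic-type member, which binds bile acids as well as fatty acids and marks hepatocytes. Its row (ENSDART00000056095) has an interval on chromosome 16 from 56117757 to 56122739 of Zv9 and averaged 950.1 CPM. The authors' deposited table gave 0.10 at 1 h and -0.37 at 4 h after high-fat feeding, and 0.08 at 1 h and -0.14 at 4 h after low-fat feeding, each with an adjusted p of 1. The widest departure, at 4 h after high-fat feeding, had an interval of -1.07 to 0.33. The 12 hepatocyte markers had medians of -0.02, -0.23, 0.17 and -0.06 in the same order. In each comparison 0 of them were called higher, where 0.437% to 2.72% of measured genes were. Likewise 0 were called lower, against 1.77% (1 h) and 0.616% (4 h) of measured genes after high-fat feeding. After low-fat feeding this share was not computed.

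**Figure D3:**
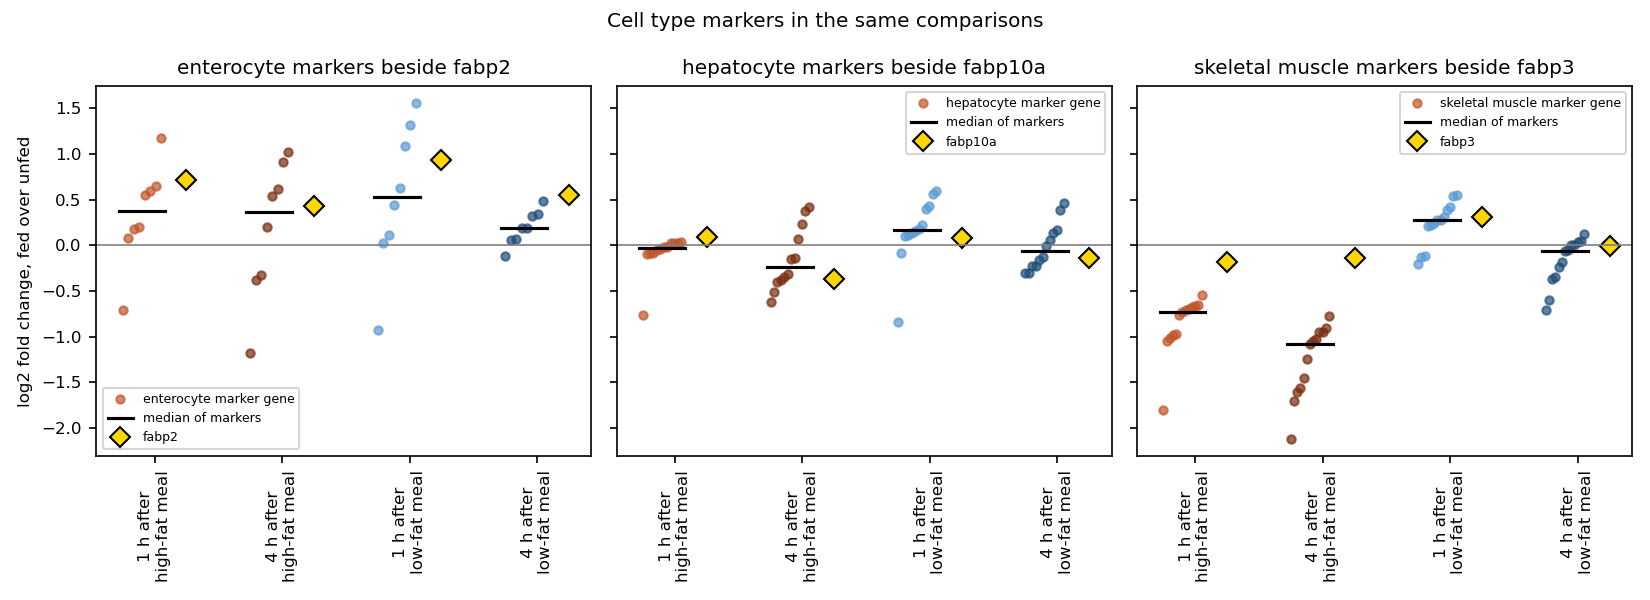
Log2 fold changes of fed over unfed larvae (vertical axis) are shown in the 4 comparisons for 8 enterocyte, 12 hepatocyte and 13 skeletal muscle markers (round points, black line at the median), beside fabp2, fabp10a and fabp3 (diamonds). After high-fat feeding the muscle markers have medians of -0.72 and -1.08, and fabp3 is at -0.18 and -0.14. No intervals are drawn.

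The members fabp3 and fabp11a, whose type names refer to heart, muscle and adipocytes, had small values. Which cells of these samples express them was not tested. The heart and muscle-type gene fabp3 (chromosome 19 from 44558175 to 44596201 of Zv9, ENSDART00000033724) averaged 56.3 CPM. In the authors' deposited table it had -0.18 and -0.14 at 1 h and 4 h after high-fat feeding and 0.31 and -0.01 at 1 h and 4 h after low-fat feeding, each with an adjusted p of 1. Skeletal muscle markers had medians of -0.72 and -1.08 at 1 h and 4 h after high-fat feeding, with 1 and 5 of 13 called lower (1.77% and 0.616% of all measured genes). After low-fat feeding their medians were 0.28 and -0.06 with 0 called, where 2.72% and 0.437% of measured genes were called higher. The share of measured genes called lower was not computed there. At 4 h after high-fat feeding 13 of 13 muscle markers lay below the value of fabp3, the highest of them being at -0.77. The gene fabp11a, listed by RefSeq under the newer name fabp4a and related to the adipocyte-type protein of mammals, averaged 3.37 CPM (chromosome 19 from 33411582 to 33414040 of Zv9, ENSDART00000021798). Its values in the authors' deposited table lay between -0.05 and 0.41, each with an adjusted p of 1.

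The second liver-type gene, fabp1a, was too weakly counted for a firm statement. The authors' deposited table gave -1.50 at 4 h after high-fat feeding (interval -2.48 to -0.52), with an unadjusted p of 0.00388 and an adjusted p of 0.175, so it was not called. In the other comparisons the authors' deposited table gave -0.58 at 1 h after high-fat feeding and -0.29 and -0.34 at 1 h and 4 h after low-fat feeding. The row of fabp1a (ENSDART00000006606) shares its interval on chromosome 5, from 75222493 to 75239904 of Zv9, with the rows of smyd1a, a gene of muscle fibre assembly that neighbours fabp1a in RefSeq as well. At 4 h after high-fat feeding the higher of the smyd1a rows had -1.12 in the authors' deposited table (adjusted p = 0.141), on an average log2 CPM of 2.47. The same smyd1a row had -0.53 at 1 h after high-fat feeding. After low-fat feeding it had 0.32 at 1 h, where fabp1a was below 0, and -0.20 at 4 h. That reads of smyd1a enter the count of fabp1a was not tested.

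Across the 6 measured members the median log2 fold change was 0.41 at 1 h and 0.24 at 4 h after high-fat feeding, and 0.35 at 1 h and 0.26 at 4 h after low-fat feeding. Over all measured genes it was -0.01, 0.01, 0.02 and 0.02 in the same order. The members' medians leave out fabp1a, which was under the expression limit and had values from -1.50 to -0.29. At 4 h after low-fat feeding 0 of 6 members were called higher by the authors' edgeR adjusted p, where 0.437% of measured genes were, and 0 of 6 had an unadjusted p under 0.05. Among the 4 sets of differences, 1 of 6 members passed in 1 set, and the meal differences gave 0 of 6 at 1 h and at 4 h by the normal test, with 0 and 1 at an unadjusted p under 0.05. Of measured genes, 0.982% at 1 h and 0.53% at 4 h differed between the meals by this test. Of the 7 rows, 5 carry the annotation term lipid binding in the authors' deposited table, whereas slc27a4 does not and the row of fabp1b.1 carries 0 terms of any kind.

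Other genes that handle fatty acids, or that belong to the superfamily of their binding proteins, were counted against the same shares of all measured genes. Retinol and retinoic acid binding proteins are among the measured genes of the first list. Among the other binding protein genes of the same superfamily, 5 of 11 in the table were measured, and fabp6 was the one called, at 4 h after high-fat feeding (1 of 5 higher, against 0.741% of measured genes). Fabp6 is the ileal bile acid binding protein, and it averaged 157 CPM. At 4 h after high-fat feeding it rose by 1.47 in the authors' deposited table (2.77-fold, interval 0.77 to 2.17, adjusted p = 0.00972). The other comparisons gave 0.92 at 1 h after high-fat feeding (adjusted p = 0.193), and -0.27 and -0.07 at 1 h and 4 h after low-fat feeding, in the authors' deposited table. High-fat minus low-fat at 4 h was 1.54 for fabp6 (interval 0.54 to 2.53, unadjusted p = 0.00242), with an adjusted p of 0.255 by the normal test, so this difference did not pass either.

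Of 9 measured other fatty acid transporters 0 were called lower. After high-fat feeding 1.77% (1 h) and 0.616% (4 h) of measured genes were. For low-fat feeding that share was not computed. Likewise 0 of the transporters were called higher, where 0.437% to 2.72% of measured genes were, depending on the comparison. A count of 0 among 9 genes is near these shares. Picked out after their values were seen, cd36, a scavenger receptor that binds fatty acids, had 1.13 at 1 h after low-fat feeding (adjusted p = 0.0581), and slc27a1b had 1.15 at 4 h after high-fat feeding (adjusted p = 0.104), in the authors' deposited table. Of 16 measured acyl-CoA synthetases and acyl-CoA binding proteins, 0 were called lower in any comparison, against the shares given for the transporters. At 4 h 0 were called higher, where 0.741% (high-fat) and 0.437% (low-fat) of measured genes were. At 1 h, 1 rose after high-fat feeding (1.96% of measured genes) and 1 after low-fat feeding (2.72%). These were acbd3, a Golgi protein with an acyl-CoA binding domain, at 1.23 (adjusted p = 0.0332), and the acyl-CoA synthetase gene acsbg1 at 1.59 (adjusted p = 0.00184), both in the authors' deposited table. With the other feed at 1 h, acbd3 had 0.81 (low-fat) and acsbg1 0.61 (high-fat), neither called. High-fat minus low-fat at 1 h was 0.42 for acbd3 (interval -0.58 to 1.43) and -0.98 for acsbg1 (interval -1.98 to 0.02). Neither difference passed the normal test after adjustment.

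Peroxisome proliferator-activated receptors bind fatty acids and drive several binding protein genes in mammals. Of 14 measured genes of these receptors and their partners, hnf4a, a transcription factor of hepatocytes and enterocytes, was the one called (1 of 14 higher at 1 h after low-fat feeding, against 2.72% of measured genes). It rose by 1.21 at 1 h after low-fat feeding (2.31-fold, adjusted p = 0.0340) in the authors' deposited table, and had 0.42 at 1 h after high-fat feeding (adjusted p = 0.895). The difference between the meals at 1 h was -0.79 for hnf4a (interval -1.78 to 0.21).

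**Figure D4:**
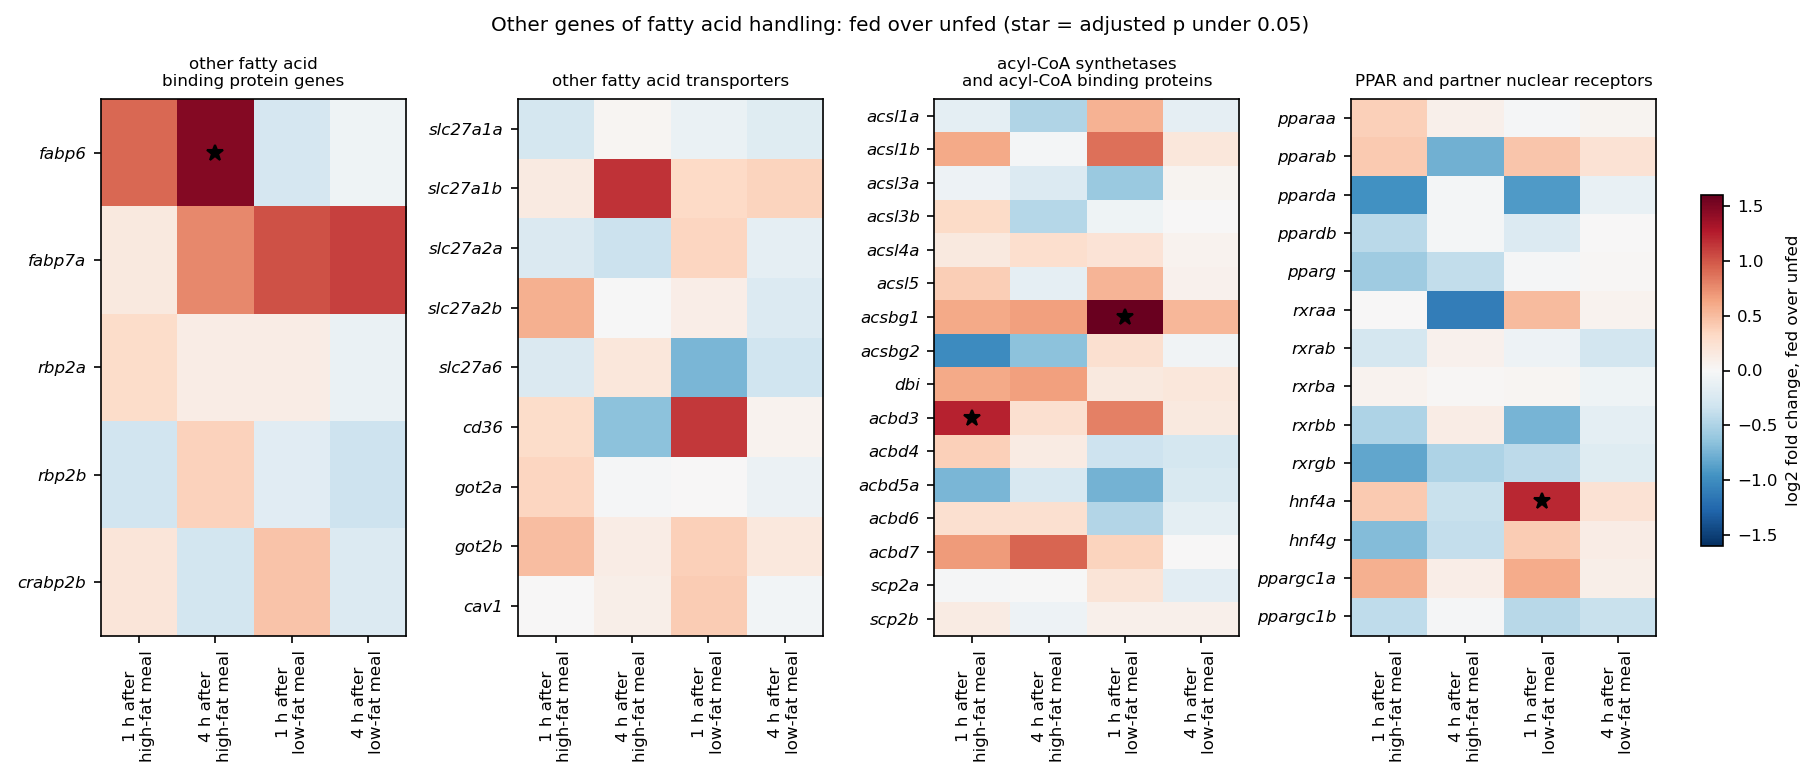
Colour gives the log2 fold change of fed over unfed larvae in the 4 comparisons (columns) for the measured genes of 4 lists (rows), and a star marks an adjusted p under 0.05. Stars are seen for fabp6 at 4 h after high-fat feeding, acbd3 at 1 h after high-fat feeding, and acsbg1 and hnf4a at 1 h after low-fat feeding.

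Genes with the most similar values over the 4 comparisons were sought among 11005 symbols averaging a log2 CPM of 1 or more, by the root mean square difference of log2 fold change, as a description without a test. For slc27a4 these were zgc:136870, kpna1 and nop2, at distances of 0.09, 0.11 and 0.12. In the authors' deposited table kpna1 had 1.25 and 1.40 at 1 h after high-fat and low-fat feeding, and 0.26 and 0.61 at 4 h. For fabp1b.1 the closest was the row of the joined copies, at a distance of 0.000787, followed by tfg at 0.10 and gale at 0.12. The joined row shares the interval and average level of fabp1b.1, so its closeness is no finding about another gene. The value of gale at 4 h after high-fat feeding in the authors' deposited table was 1.39 (adjusted p = 0.0208), and that of tfg 1.25 (adjusted p = 0.0561).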

How the data were processed

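Libraries of poly(A) RNA were made with the TruSeq RNA kit v2 and read as 50 bases with 6 samples per lane, per the labels' protocols. Reads were aligned with TopHat2 to Zv9 and compared with edgeR, per the submitters' processing notes; versions, counter and annotation: not given in the sources used here. Deposited was a table that holds 56754 transcript rows and 0 columns of single samples: log2 fold changes, p-values and adjusted p-values of 4 comparisons, each with a column of average log2 CPM, per the file headers; these 4 columns hold the same values (0 rows differ). The authors' adjusted p-values equal Benjamini-Hochberg values over all rows to within 1e-6 (0 exceptions), as checked here. Starts in the table count from 0 (4 rows start at 0), so 1 was added.

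Implied standard errors were medians over the 200 rows nearest in expression with a log2 fold change over 0.5 in size. Among 2331 such values at a log2 CPM of at least 5, the 10th and 90th percentile were 0.357 and 0.363, so the p-values follow expression level and hardly each transcript's own spread between samples. Differences between meals add both squared errors; between times, the unfed samples cancel and the mean squared error was used. The difference test, which used Python 3.11.15, pandas 2.3.3 and scipy 1.17.1, was tested on simulated data. These were drawn with the same implied standard errors. They therefore cannot check the limit that a transcript's own spread hardly enters the p-values. Members, lists and tests were chosen with earlier results of these data known. Named genes are the 7 members, genes of the 4 lists of related genes called in any comparison and the 3 symbols nearest in pattern to each called member. Marker lists are given as counts. Outside this rule, smyd1a is named for its shared interval, pparab and rxraa for a difference between times, and cd36 and slc27a1b after their values were seen. Protein and promoter sequences were not used here, nor was the motif search planned for them.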

Additional observations from a re-analysis of the deposited data

Results flagged for a closer look

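All 4 differences were scanned for the 6 measured members and for the 4 lists of related genes, with 5, 9, 16 and 14 measured genes. Of all measured genes, 3.25% were called lower at 4 h than at 1 h after high-fat feeding. The following differences between times passed the normal test of the difference itself (adjusted over the measured genes). For slc27a4 the log2 fold change against unfed larvae was 0.08 at 4 h and 1.27 at 1 h after high-fat feeding, a difference of -1.2 (adjusted p = 0.0183). For pparab, a receptor of the PPAR alpha type, it was -0.77 at 4 h and 0.42 at 1 h after high-fat feeding, a difference of -1.18 (adjusted p = 0.0283). For rxraa, a retinoid X receptor gene, it was -1.10 at 4 h and 0.0038 at 1 h after high-fat feeding, a difference of -1.11 (adjusted p = 0.0358). After low-fat feeding the same differences were -0.87, -0.21 and -0.45, and none of them passed (adjusted p = 0.287, 0.994 and 0.868). Neither pparab nor rxraa was called against unfed larvae at either time in the authors' deposited table. The average log2 CPM was 1.68 for pparab, 4.63 for rxraa and 4.77 for slc27a4. These levels lie below the log2 CPM of 5 from which the spread behind the p-values was checked.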

How the results depend on the processing

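An adjusted p under 0.01 in place of 0.05 called 0 members at either time after high-fat feeding and at 1 h after low-fat feeding, where 0.05 called 1 each, so the adjusted p of each of these members lies between these limits. A limit of 0.1, an adjustment over the 12828 measured genes and the second transcript of fabp3 and fabp10a kept the count in each of the 4 comparisons. The adjusted p over measured genes was 0.0160 and 0.00707 for slc27a4 at 1 h after high-fat and low-fat feeding, and 0.0184 for fabp1b.1 at 4 h after high-fat feeding. These second transcripts moved a log2 fold change by at most 0.0191 and centring on the median gene by at most 0.0235. A second row of fabp11a, at an average log2 CPM of -4.70, was too low to be tried. Taking the row without a symbol at the interval of fabp2, chosen after seeing the data, moved it by at most 0.0708. One shared standard error changed no call of a difference. No paired analysis was possible because the table used has no sample columns, and for the same reason no fit left out a replicate. Depth per sample is unknown, so no interval for counting error is given.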

Other observations

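A minor transcript row joined to fabp1b.1 and fabp1b.2, ENSDART00000149179, had other values than the main rows of that interval. Its average log2 CPM was -0.91, and the authors' deposited table gave 1.65 at 1 h after high-fat feeding (adjusted p = 0.0178) and 0.62 at 4 h (adjusted p = 1). After low-fat feeding the authors' deposited table gave 1.22 at 1 h (adjusted p = 0.335) and 1.16 at 4 h (adjusted p = 1). Its interval at 1 h after high-fat feeding, 0.74 to 2.56, overlaps that of the main row, and which of the copies it measures is not resolved by the table.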
